A study of Mus musculus with 24 samples.

Results

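Dendritic cells were not the cells sorted in this study, but transcripts that mark them were present in the sorted monocytes and differed between genotypes. The 9 genes Clec9a, Xcr1, Siglech, Zbtb46, Cd209a, Batf3, Tcf4, Ccr9, and Bcl11a were taken by name from a table of 23930 gene amplicons, and all 9 were found. They had been picked because earlier results of these data showed dendritic cell genes at a lower level in Slc29a3-/- monocytes than in monocytes that also lacked Tlr7. That difference is therefore described here and was not tested for these genes. Splenic monocytes of untreated mice had been sorted as Ly6C hi cells (CD11b+ Ly6G- SiglecF- NK1.1-, and low in Fcgr4 by the study's methods) or Ly6C low cells (CD11b+ Fcgr4+ Ly6G- SiglecF- NK1.1-), and the labels call both macrophages. Each subset came from WT mice, from Slc29a3-/- mice, which lack a lysosomal nucleoside transporter, and from Slc29a3-/- Tlr7-/- mice, which in addition lack the endosomal RNA sensor TLR7, with 4 libraries for each of the 6 groups. By the study's methods the mutants are germline mutants on C57BL/6, and WT mice were bought, so that WT animals were not littermates of the mutants. Age and sex of the mice and the number of mice behind a library are not given in the sources used here, so the p-values below measure the spread between libraries, which may be technical. The antibodies named for the sort do not include CD11c or MHC class II, by which dendritic cells are usually told from monocytes.

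Dendritic cells take up antigen and present it to T cells, and they form at least 3 types that rely on different transcription factors. Type 1 conventional dendritic cells (cDC1) need BATF3 and IRF8, carry the dead-cell receptor CLEC9A and the chemokine receptor XCR1, and present antigen to CD8+ T cells. Plasmacytoid dendritic cells (pDCs) need TCF4 (also called E2-2) and BCL11A, carry Siglec-H and, when mature, CCR9, and make type I interferon when TLR7 or TLR9 senses nucleic acid. ZBTB46 is a transcription factor shared by conventional dendritic cells, and CD209A is a lectin of type 2 conventional (cDC2) and monocyte-derived dendritic cells. In a bulk library of sorted cells, fewer cells of a type and less RNA per cell cannot be told apart.

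The stretches upstream of 4 of the genes are shown because these genes fell most in Slc29a3-/- Ly6C hi monocytes against WT, and because they stand for the cDC1 pair (Clec9a and Xcr1) and the pDC pair (Siglech and Ccr9). Each is the 250 bases before the start that RefSeq gives the gene, 5′ to 3′ on the gene's strand, on GRCm38.p6. The gene spans printed further on are from GENCODE, whose starts can differ, so that the Ccr9 stretch lies inside the GENCODE span of Ccr9 and the end of the Siglech stretch reaches past the GENCODE start of Siglech. Capitals mark the letters CANNTG, the class of E-box that TCF4 and its relatives bind, searched on both strands. For Clec9a the stretch is chr6:129408612-129408861 on the plus strand, for Xcr1 chr9:123862030-123862279 on the minus strand, for Siglech chr7:55767934-55768183 on the plus strand, and for Ccr9 chr9:123766961-123767210 on the plus strand.
Clec9a: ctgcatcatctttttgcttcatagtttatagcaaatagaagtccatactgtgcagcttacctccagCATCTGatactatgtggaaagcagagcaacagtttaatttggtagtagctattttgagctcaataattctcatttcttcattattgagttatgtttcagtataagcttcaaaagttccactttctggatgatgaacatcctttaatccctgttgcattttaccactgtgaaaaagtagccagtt
Xcr1: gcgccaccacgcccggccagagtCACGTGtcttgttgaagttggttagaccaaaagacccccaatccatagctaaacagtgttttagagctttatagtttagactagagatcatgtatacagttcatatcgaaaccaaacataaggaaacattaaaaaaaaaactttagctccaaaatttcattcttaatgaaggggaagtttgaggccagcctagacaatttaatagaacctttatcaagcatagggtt
Siglech: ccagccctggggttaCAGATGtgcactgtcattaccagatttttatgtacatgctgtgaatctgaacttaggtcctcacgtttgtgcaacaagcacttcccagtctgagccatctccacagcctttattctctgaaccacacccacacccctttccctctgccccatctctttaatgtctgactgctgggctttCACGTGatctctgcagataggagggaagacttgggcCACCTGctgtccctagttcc
Ccr9: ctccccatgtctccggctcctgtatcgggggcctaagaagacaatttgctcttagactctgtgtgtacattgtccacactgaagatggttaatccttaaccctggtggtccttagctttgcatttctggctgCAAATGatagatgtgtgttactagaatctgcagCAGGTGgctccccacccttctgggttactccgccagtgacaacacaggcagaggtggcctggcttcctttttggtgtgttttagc
Upstream stretches were found for 8 of the 9 genes, and all 8 held CANNTG, as did 66.2% of the 32851 stretches of the same length. Siglech held 3 such matches, Ccr9 held 2, and Clec9a and Xcr1 held 1 each. The letters TGANTCA, the class of site that BATF3 binds with JUN proteins, were found in 1 of the 8, Zbtb46, against 6.75% of all stretches. The letters GAGGAA, an Ets core, were found in 1 of the 8, Batf3, against 23.3% of all, and the paired half-sites of an interferon-stimulated response element (ISRE), a class of IRF site, in 0 of the 8 against 2.98%. All 4 motifs were searched on both strands, and in the stretches shown CANNTG was the only one of them found. A match describes the sequence only.

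Levels are RPM (reads scaled to 1000000 per library) of 1 amplicon per gene, so they compare libraries and not genes. Depth ranged from 12311110 to 14572064 reads per library, inferred from the step between low values, and 3 reads corresponded to 0.206 to 0.244 RPM. WT replicates 1 to 3 of both subsets carried barcodes 11 to 16 and were deeper (14237214 to 14572064 reads) than the other 18 libraries (12311110 to 13048429 reads). In the Ly6C hi subset these 3 WT libraries were more alike than any other pair, with a median chi-square per gene of 1.73 to 1.98 against 4.79 to 16.4, and sampling noise alone gives 0.455. They were kept as separate libraries. WT replicate 4 stood apart from them in both subsets, so each comparison with WT was also made with this replicate alone in place of WT. The sequenced amplicons of Slc29a3 (163 to 225 RPM in WT, 127 to 173 RPM in Slc29a3-/-, and 194 to 413 RPM in Slc29a3-/- Tlr7-/- Ly6C hi libraries) and Tlr7 (210 to 336, 111 to 227, and 259 to 345 RPM) were still read in the mutants, and genotype rests on the labels. Subset markers followed the labels, since all 6 measured Ly6C hi monocyte genes were lower and 7 of 8 Ly6C low monocyte genes were higher in Ly6C low than in Ly6C hi WT libraries.

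All 3 cDC1 genes were lower in Slc29a3-/- than in WT Ly6C hi monocytes, with no overlap between the libraries. Clec9a (gene ID 232414, chr6:129408862-129424763), the receptor for actin exposed on dead cells, was read at 42.4, 36.9, 40.9, and 22.9 RPM in the WT replicates 1 to 4 of this subset. Its levels were 4.94, 3.72, 4.12, and 3.81 RPM in Slc29a3-/- and 23.2, 20.6, 37.9, and 34.7 RPM in Slc29a3-/- Tlr7-/- libraries. All 4 Slc29a3-/- libraries were below every library of the other genotypes, and WT and Slc29a3-/- Tlr7-/- libraries overlapped. In Ly6C low monocytes Clec9a was at 12.9, 16.2, 13.4, and 18.5 RPM in WT, 4.21, 5.68, 7.65, and 3.81 RPM in Slc29a3-/-, and 10.7, 21.8, 20.6, and 14.6 RPM in Slc29a3-/- Tlr7-/- libraries. There too the Slc29a3-/- libraries were below both other groups, which overlapped.

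Xcr1 (gene ID 23832, chr9:123852315-123862029), the receptor for the chemokine XCL1, was at 13, 15.1, 12.7, and 5.46 RPM in WT Ly6C hi libraries. It was read at 0.637, 0.870, 0.872, and 2.30 RPM in Slc29a3-/- and 4.54, 7.72, 5.31, and 14.8 RPM in Slc29a3-/- Tlr7-/- libraries. Again the 4 Slc29a3-/- libraries were lowest, with replicate 4 above the other three. Its Ly6C low levels were 6.43, 6.66, 4.71, and 9.50 RPM in WT, 3.74, 4.88, 6.86, and 6.67 RPM in Slc29a3-/-, and 6.62, 7.70, 8.84, and 16.1 RPM in Slc29a3-/- Tlr7-/- libraries, and all 3 genotypes overlapped. Unlike those of Clec9a, the other cDC1 receptor gene, the Slc29a3-/- libraries of Xcr1 thus overlapped the other groups in the Ly6C low subset. These genes were not tested against each other.

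Batf3 (gene ID 381319, chr1:191097847-191108945), the transcription factor that cDC1 depend on, was at 11.7, 8.74, 11.4, and 9.28 RPM in WT Ly6C hi libraries. The values were 5.01, 5.93, 4.84, and 1.51 RPM in Slc29a3-/- and 9.63, 4.63, 10.4, and 8.26 RPM in Slc29a3-/- Tlr7-/- libraries. The Slc29a3-/- libraries lay below all WT libraries but overlapped those of Slc29a3-/- Tlr7-/- mice, whose replicate 2 was within their range. Ly6C low libraries held 2.81 to 3.43 RPM in WT, 2.46 to 3.97 RPM in Slc29a3-/-, and 1.97 to 3.42 RPM in Slc29a3-/- Tlr7-/- mice, with all groups overlapping.

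Among the pDC genes, Siglech (gene ID 233274, chr7:55768178-55778925), an endocytic receptor that marks pDCs, had the widest range. It was at 41.9, 43, 38.5, and 13.7 RPM in WT Ly6C hi libraries, 3.50, 1.26, 2.22, and 2.86 RPM in Slc29a3-/-, and 18.5, 17.7, 17.7, and 16.4 RPM in Slc29a3-/- Tlr7-/- libraries. WT replicate 4 was far below the other WT libraries and just below the Slc29a3-/- Tlr7-/- range, and still above every Slc29a3-/- library. Ly6C low monocytes had 3.84, 9.40, 4.99, and 2.30 RPM in WT, 0.318, 0.960, 0.315, and 1.27 RPM in Slc29a3-/-, and 0.969, 1.27, 4.74, and 1.76 RPM in Slc29a3-/- Tlr7-/- libraries. There the mutant groups overlapped, and all Slc29a3-/- libraries were below WT.

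Ccr9 (gene ID 12769, chr9:123678439-123784330), the receptor that guides cells to the gut ligand CCL25, was at 4.30, 4.51, 5.04, and 7.18 RPM in WT Ly6C hi libraries. It was at 0.955, 0.237, 0.555, and 0.794 RPM in Slc29a3-/- and 3, 1.14, 1.74, and 1.52 RPM in Slc29a3-/- Tlr7-/- libraries. The 3 genotypes did not overlap, and the level of the doubly deficient libraries lay between the others. In Ly6C low libraries Ccr9 was near the floor, with 0.349 to 0.843 RPM in WT, 0.318 to 0.960 RPM in Slc29a3-/-, and 0 to 1.12 RPM in Slc29a3-/- Tlr7-/- mice, and it did not pass the filter on low values. Ccr9 and Xcr1 are neighbours on chromosome 9, with 67985 bases between them.

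Tcf4 (gene ID 21413), the transcription factor that sets pDC identity, was at 31.6, 37.3, 36.4, and 24.8 RPM in WT Ly6C hi libraries, 14.6, 10.6, 7.14, and 12.8 RPM in Slc29a3-/-, and 25.4, 9.75, 34.2, and 9.38 RPM in Slc29a3-/- Tlr7-/- libraries. Replicates 2 and 4 of the last group were at the Slc29a3-/- level and replicates 1 and 3 near the WT level. In Ly6C low libraries Tcf4 was at 14.1 to 20.5 RPM in WT, 7.95 to 16.4 RPM in Slc29a3-/-, and 12.2, 11.5, 5.37, and 2.40 RPM in Slc29a3-/- Tlr7-/- mice, so that the doubly deficient group was below WT. Bcl11a (gene ID 14025, chr11:24078056-24174123), a zinc finger transcription factor needed for pDCs and B cells, had overlapping genotypes in both subsets. Its Ly6C hi levels were 22, 25.5, 23.5, and 20.8 RPM in WT, 12, 27.5, 18, and 14.9 RPM in Slc29a3-/-, and 20.9, 36.9, 26.6, and 25.1 RPM in Slc29a3-/- Tlr7-/- libraries. Its Ly6C low levels were 10.5, 14, 14.9, and 24.7 RPM in WT, 19.4 to 27 RPM in Slc29a3-/-, and 22.1 to 29.1 RPM in Slc29a3-/- Tlr7-/- libraries. Only WT replicate 4 of the Ly6C low subset reached the mutant levels of Bcl11a.

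Zbtb46 (gene ID 72147, chr2:181387762-181459426), the transcription factor of conventional dendritic cells, was at 5.34, 6.17, 4.55, and 3.67 RPM in WT, 1.75, 0.633, 1.35, and 0.0790 RPM in Slc29a3-/-, and 3.70, 2.52, 4.12, and 4.65 RPM in Slc29a3-/- Tlr7-/- Ly6C hi libraries. Its Ly6C low levels were 5.31, 6.93, 4.64, and 9.96 RPM in WT, 1.59, 3.36, 2.29, and 2.07 RPM in Slc29a3-/-, and 7.35, 6.43, 11.2, and 10.4 RPM in Slc29a3-/- Tlr7-/- libraries. In each subset all Slc29a3-/- libraries were below every other library. Cd209a (gene ID 170786, chr8:3743397-3748984), a relative of human DC-SIGN, was at 21.2, 20.3, 20.3, and 29.2 RPM in WT, 13.4, 23.2, 8.88, and 5.24 RPM in Slc29a3-/-, and 35.8, 37.3, 38.6, and 44.2 RPM in Slc29a3-/- Tlr7-/- Ly6C hi libraries. The doubly deficient libraries were the highest, above all WT libraries, and 1 Slc29a3-/- library was within the WT range. Ly6C low libraries had 6.78, 8.30, 7.02, and 17.3 RPM in WT, 2.31, 4.96, 5.29, and 4.77 RPM in Slc29a3-/-, and 9.69, 12.1, 17.8, and 20.9 RPM in Slc29a3-/- Tlr7-/- mice, with Slc29a3-/- below both other groups.

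**Figure D1:**
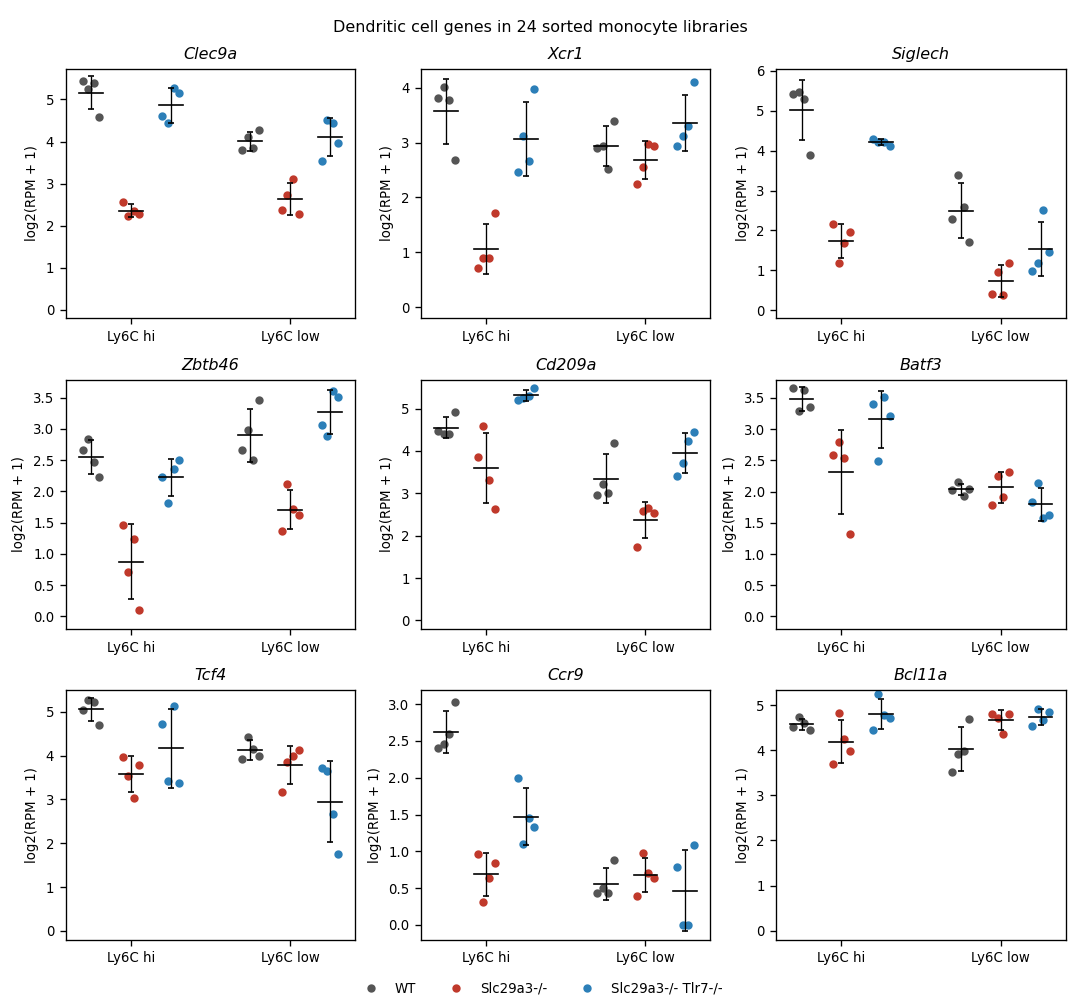
Level of each of the 9 dendritic cell genes as log2(RPM + 1) on the vertical axis in the 24 libraries, grouped by subset (Ly6C hi left, Ly6C low right) and coloured by genotype. Points are libraries in the order of replicates 1 to 4, the bar is the mean and the whiskers the SD (n = 4); the red Slc29a3-/- points of Clec9a lie between 3.72 and 4.94 RPM in Ly6C hi monocytes, below the 20.6 RPM of the lowest blue point.

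The comparison of Slc29a3-/- with Slc29a3-/- Tlr7-/- monocytes asks which differences depend on Tlr7, and it is the one by which the genes were chosen. In Ly6C hi monocytes the differences in mean log2(RPM + 1) were -2.51 for Clec9a, -2.47 for Siglech, -2.00 for Xcr1, -1.72 for Cd209a, -1.35 for Zbtb46, -0.84 for Batf3, -0.78 for Ccr9, -0.60 for Bcl11a, and -0.59 for Tcf4. The median over the 9 genes was -1.35, and the median over all 10561 genes tested in this subset was -0.12. Groups did not overlap for 6 of the 9 genes, all lower in Slc29a3-/-, and 11.5% of all genes tested were separated in that direction. Just inside that limit was Ccr9, whose highest Slc29a3-/- library (0.955 RPM) was under the lowest doubly deficient one (1.14 RPM), and just outside it was Batf3 (5.93 against 4.63 RPM). In Ly6C low monocytes the differences were -1.58 for Cd209a, -1.56 for Zbtb46, -1.49 for Clec9a, -0.80 for Siglech, and -0.68 for Xcr1. Bcl11a (-0.08), Ccr9 (0.21), Batf3 (0.27), and Tcf4 (0.83) were not lower or scarcely lower in Slc29a3-/- there. Groups were apart for 3 of the 9 genes, Clec9a, Zbtb46, and Cd209a, with 4.04% of 10317 genes tested separated in that direction.

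The comparison of Slc29a3-/- with WT asks what the loss of the transporter changed while Tlr7 was present. It shares the Slc29a3-/- libraries with the comparison above and is not independent of how the genes were chosen. In Ly6C hi monocytes 8 of the 9 genes fell, by limma on log2(RPM + 1) with a fold over 1.5 and a Benjamini-Hochberg adjusted p under 0.05 over all genes tested, a limit that 14.3% of genes passed in this direction. Siglech fell by 3.27 on the log2 scale (SE 0.32, limma adjusted p = 4.4e-05) and Clec9a by 2.80 (SE 0.23, limma adjusted p = 2.6e-05). Xcr1 fell by 2.51 (SE 0.36), Ccr9 by 1.94 (SE 0.26), Zbtb46 by 1.67 (SE 0.29), Tcf4 by 1.47 (SE 0.35), Batf3 by 1.17 (SE 0.31), and Cd209a by 0.96 (SE 0.31), with limma adjusted p from 2.3e-04 to 0.032. Ccr9 passed the filter through its WT and Slc29a3-/- Tlr7-/- libraries and was at 0.237 to 0.955 RPM in Slc29a3-/- libraries, under the limit of 1 RPM. In effect it could be called only lower here, under every choice of WT libraries. Bcl11a differed by -0.39 (SE 0.23, limma adjusted p = 0.23), within the spread between libraries. When WT replicate 4 alone stood for WT, 3 of the 8 calls held, those of Clec9a (-2.22, limma adjusted p = 0.023), Siglech (-2.13, limma adjusted p = 0.029), and Ccr9 (-2.34, limma adjusted p = 0.033). When single libraries were left out in turn, 7 of the 8 calls held each time, and Cd209a lost its call without any one of 6 libraries (WT replicates 1 to 4, Slc29a3-/- replicates 3 and 4), with adjusted p of 0.055 to 0.09. Averaging WT replicates 1 to 3 into 1 library left 5 calls, those 3 with Xcr1 and Zbtb46, and Bcl11a was called lower without Slc29a3-/- replicate 2 (-0.60, limma adjusted p = 0.048).

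In Ly6C low monocytes 3 genes fell against WT, where 2.53% of all genes tested did. These were Siglech (-1.75, SE 0.39, limma adjusted p = 0.019), Clec9a (-1.39, SE 0.26, limma adjusted p = 0.0076), and Zbtb46 (-1.19, SE 0.27, limma adjusted p = 0.02). Cd209a was at -0.97 (SE 0.32, limma adjusted p = 0.1) with groups that did not overlap, and Bcl11a at 0.64 (SE 0.23, limma adjusted p = 0.12). Xcr1 (-0.26), Tcf4 (-0.34), and Batf3 (0.03) did not pass, and Ccr9 was not tested. No call held when WT replicate 4 alone stood for WT or with WT replicates 1 to 3 averaged into 1 library, where the same 3 genes were at -0.99 to -1.75 and -1.38 to -1.54. Only Clec9a stayed called without WT replicate 2, Slc29a3-/- replicate 1, or Slc29a3-/- replicate 3, the call of Siglech was also lost without WT replicate 3 and that of Zbtb46 without Slc29a3-/- replicate 4, and without WT replicate 4 Bcl11a was called higher (0.86, limma adjusted p = 0.0091).

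The comparison of Slc29a3-/- Tlr7-/- with WT asks what remained once Tlr7 was also lost. It shares the Slc29a3-/- Tlr7-/- libraries with the comparison by which the genes were chosen and is not independent of that choice. Ccr9 was the 1 gene of 9 called in Ly6C hi monocytes, lower by -1.15 (SE 0.26, limma adjusted p = 0.046), where 1.11% of all genes tested were called lower. That call was lost without any one of 9 libraries (WT replicates 1 to 3, Slc29a3-/- replicates 1 to 3, and Slc29a3-/- Tlr7-/- replicates 2 to 4), with adjusted p of 0.055 to 0.18, whereas the difference stayed between -1.33 and -1.02 whichever of the 12 libraries was left out. Clec9a differed by -0.29 (SE 0.23, limma adjusted p = 0.47), Xcr1 by -0.51 (SE 0.36, limma adjusted p = 0.41), and Zbtb46 by -0.33 (SE 0.29, limma adjusted p = 0.53). Siglech was at -0.80 (SE 0.32, limma adjusted p = 0.15), Tcf4 at -0.88 (SE 0.35, limma adjusted p = 0.16), and Cd209a at 0.76 (SE 0.31, limma adjusted p = 0.16). Siglech was called lower without WT replicate 4 (-1.18, limma adjusted p = 0.0051), and with that library alone in place of WT its sign turned (0.34). In Ly6C low monocytes 0 of the 8 genes tested were called by limma, against 8.31% of all genes called in either direction. At an unadjusted p under 0.05 and a fold over 1.5 there were 3, where 627 of 10317 genes were higher and 1508 lower. These 3 were Tcf4 (-1.17, SE 0.37, limma adjusted p = 0.062), Siglech (-0.95, SE 0.39, limma adjusted p = 0.12), and Bcl11a (0.72, SE 0.23, limma adjusted p = 0.061). Without WT replicate 4 of this subset 3 genes were called, Bcl11a (0.94) and Cd209a (0.89) higher and Siglech (-1.21) lower, without Slc29a3-/- Tlr7-/- replicate 1 these were Tcf4 and Bcl11a, and without its replicate 2 Tcf4 alone.

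**Figure D2:**
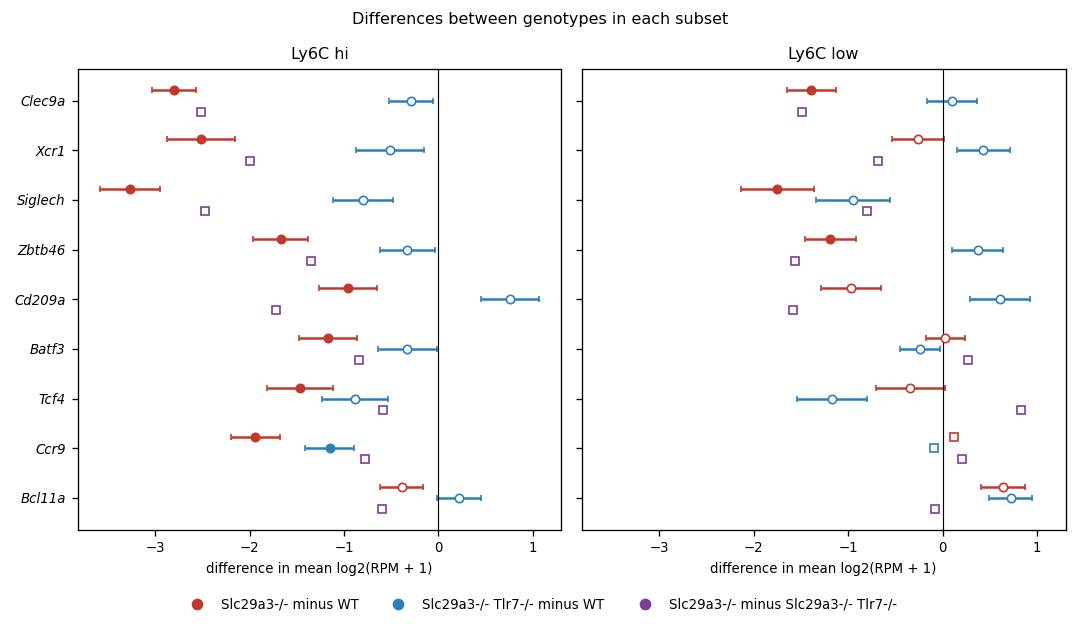
Differences in mean log2(RPM + 1) between genotypes for the 9 genes, in Ly6C hi (left) and Ly6C low (right) monocytes, with limma standard errors as whiskers. Filled circles passed the fold and adjusted p limits, open circles did not, and open squares without whiskers were not tested; filled red circles (Slc29a3-/- minus WT) mark 8 genes on the left and 3 on the right, and 1 blue circle (Ccr9, left) is filled.

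The subsets were compared within each genotype in a limma model of all 24 libraries. In WT mice, whose libraries are outside the contrast behind the choice of the genes, 5 of the 9 genes were lower in Ly6C low than in Ly6C hi monocytes, against 17.5% of 11042 genes tested. They were Siglech (-2.53, SE 0.37, limma adjusted p = 8.4e-06), Ccr9 (-2.06, SE 0.25, limma adjusted p = 7.1e-07), Batf3 (-1.45, SE 0.27, limma adjusted p = 1.6e-04), Cd209a (-1.21, SE 0.33, limma adjusted p = 0.0069), and Clec9a (-1.15, SE 0.25, limma adjusted p = 9.0e-04). Ccr9 passed the filter of this model through its Ly6C hi libraries and was at 0.349 to 0.843 RPM in WT Ly6C low libraries. It could therefore be called only in this direction, under every choice of WT libraries. Tcf4 (-0.93, limma adjusted p = 0.073), Xcr1 (-0.64, limma adjusted p = 0.17), Bcl11a (-0.55, limma adjusted p = 0.077), and Zbtb46 (0.35, limma adjusted p = 0.39) did not pass. Only Ccr9 (-2.15, limma adjusted p = 0.03) stayed called when WT replicate 4 of each subset alone stood for WT, and Clec9a was then at -0.29. Averaging WT replicates 1 to 3 left 3 calls (Siglech, Batf3, and Ccr9), Bcl11a was also called lower without Ly6C low WT replicate 4 (-0.77), and Tcf4 without Ly6C low Slc29a3-/- Tlr7-/- replicate 4 (-0.93).

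The subsets were compared in the same way in the mutants. These are the libraries by which the genes were chosen, so the counts and p-values are not independent of that choice. In Slc29a3-/- mice Xcr1 (1.62, SE 0.34, limma adjusted p = 4.0e-04) and Zbtb46 (0.83, SE 0.28, limma adjusted p = 0.019) were higher in Ly6C low than in Ly6C hi monocytes, where 18.5% of all genes tested were higher. Cd209a (-1.23, SE 0.33, limma adjusted p = 0.0043) and Siglech (-1.01, SE 0.37, limma adjusted p = 0.031) were lower there, with 16.5% of all genes. Without Ly6C hi Slc29a3-/- replicate 4 the calls of Zbtb46 (0.57) and Siglech (-0.94) were lost, that of Zbtb46 also without Ly6C low Slc29a3-/- replicate 2, and that of Siglech also without replicate 1 or 3 of either Slc29a3-/- subset. In Slc29a3-/- Tlr7-/- mice 6 genes were lower in Ly6C low monocytes, with 18.7% of all genes tested, among them Siglech (-2.68, SE 0.37), Cd209a (-1.36, SE 0.33), and Batf3 (-1.36, SE 0.27). Ccr9 was also among the 6 and, being near the floor in Ly6C low libraries, could be called only in this direction. Zbtb46 was higher (1.04, SE 0.28, limma adjusted p = 0.005), with 9.64% of all genes. Among the 6, the call of Clec9a (-0.75) was lost without Ly6C hi Slc29a3-/- Tlr7-/- replicate 3 or 4 or Ly6C low replicate 1, and that of Tcf4 (-1.22) without Ly6C hi replicate 1 or 3 or Ly6C low replicate 4. With only these 2 groups in the model 4 of the 9 genes passed, and Clec9a, Tcf4, and Ccr9 did not.

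**Figure D3:**
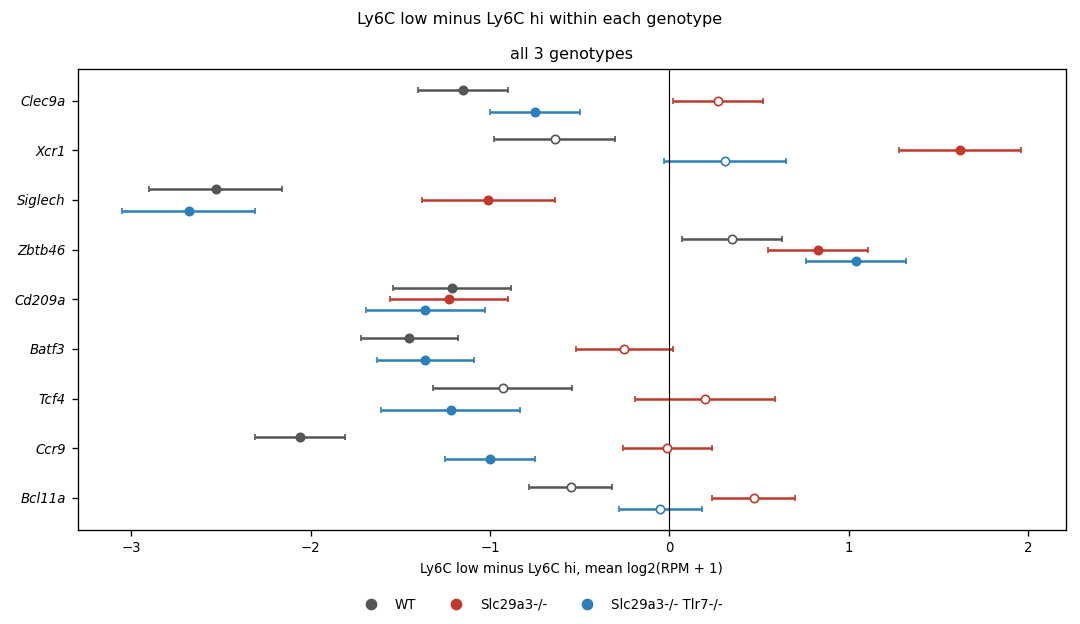
Difference between Ly6C low and Ly6C hi monocytes in mean log2(RPM + 1) for each of the 9 genes within WT (grey), Slc29a3-/- (red), and Slc29a3-/- Tlr7-/- (blue) mice, with limma standard errors. Filled circles passed the fold and adjusted p limits; Xcr1 in Slc29a3-/- mice lies at 1.62, to the right of 0, while Siglech lies left of 0 in all 3 genotypes.

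The effect of Slc29a3 loss was compared between the subsets by the interaction in the model of all 24 libraries. This again uses the Slc29a3-/- libraries by which the genes were chosen and is not independent of that choice. For 4 of the 9 genes the interaction passed in the direction of a lower value in Ly6C hi monocytes, a direction in which 4.65% of all genes tested were called. The difference between the subsets' effects was -2.26 for Xcr1 (SE 0.48, limma adjusted p = 0.0035), -2.05 for Ccr9 (SE 0.36, limma adjusted p = 8.1e-04), -1.42 for Clec9a (SE 0.35, limma adjusted p = 0.012), and -1.20 for Batf3 (SE 0.38, limma adjusted p = 0.047). Ccr9 passed the filter of this model through its Ly6C hi libraries, and at 0 to 1.12 RPM in Ly6C low libraries a fall could not have appeared there, so its value does not show a difference between the subsets. With the replicate number as a block, Batf3 was no longer called (limma adjusted p = 0.061) and Bcl11a was (-1.03, limma adjusted p = 0.036). Without the block, Siglech (-1.52, SE 0.52, limma adjusted p = 0.072) and Bcl11a (-1.03, SE 0.33, limma adjusted p = 0.052) did not pass. With WT replicate 4 of each subset as the only WT library, 0 of the 9 passed, and Xcr1 was at -0.92 and Clec9a at -0.56. The call of Batf3 was lost without any one of 15 libraries, to adjusted p of 0.051 to 0.11. It was also lost under TMM or RLE scaling, without the filter, with a mean of at least 5 RPM, or with a pseudocount of 0.1. Siglech was called without Ly6C hi WT replicate 4 (-1.90) or Ly6C low WT replicate 2 (-1.81), and Bcl11a without any one of 6 libraries, at -1.25 to -1.03. For Slc29a3-/- Tlr7-/- against WT the interaction gave 0 calls among the 9 genes by limma, where 0.0634% of all genes were called. At an unadjusted p under 0.05 and a fold over 1.5 it gave 1 (Ccr9, -1.06), where 474 of 11042 genes were higher and 387 lower. Ccr9 has the limit given above, and the Slc29a3-/- Tlr7-/- libraries were also used in choosing the genes.

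Across the 12 Ly6C hi libraries the genes closest to each other were not always those of the same dendritic cell type. Likeness was measured as the root mean square difference of log2(RPM + 1) after centring each gene on its own mean, over libraries that include those by which the genes were chosen. Genes were not scaled, so those that changed by a similar amount come out close, and likeness does not show a shared cell type. Clec9a was closer to Siglech (0.41) than to Xcr1 (0.51) and far from Batf3 (0.87) and Bcl11a (1.14). Zbtb46 and Batf3 were the closest of the 36 pairs (0.39), and Siglech and Bcl11a were the farthest (1.33). The non-member genes most like Clec9a were Cd8a (0.38), Adam23 (0.42), H2-Oa (0.43), and Blnk (0.45), where the median gene was at 1.27. Cd8a (0.38), Adam23 (0.48), Car1 (0.52), and Blnk (0.55) were most like Siglech, against a median of 1.44. Cd8a, the coreceptor that splenic cDC1 carry as a CD8αα dimer, had a mean of 24.3 RPM in WT Ly6C hi libraries, 2.22 RPM with Slc29a3 lost, and 12.8 RPM with Tlr7 lost as well. T cells also carry Cd8a, and T cell genes summed to 21.6 to 119, 4.94 to 9.49, and 3.21 to 32.6 RPM in these groups. The part of T cells in the Cd8a level was not tested. Those most like Cd209a were other genes, Arhgap39 (0.31), Plxdc1 (0.32), Pid1 (0.32), and Rab3il1 (0.34), against a median of 0.85, and Arhgap39 averaged 43.4, 32.4, and 72.3 RPM in the same order of groups.

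Genes of dendritic cells outside the 9 gave the wider view. In Ly6C hi monocytes 32 of the 48 genes tested in 4 other dendritic cell lists were called lower and 2 higher in Slc29a3-/- than in Slc29a3-/- Tlr7-/- libraries, against 8.22% lower and 17.2% in either direction of all genes tested. The median over the 48 was -0.97 on the log2 scale, and that over all genes tested was -0.12. Against WT, 31 fell and 2 rose (14.3% and 8.15% of all genes tested), with a median of -0.94 against -0.14. The lists were drawn up with earlier results of these data known, so the counts describe them and do not test them. When WT replicate 4 alone stood for WT, 2 of the 48 fell against WT, and without Slc29a3-/- replicate 4 the calls against Slc29a3-/- Tlr7-/- numbered 22.

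Of 13 further cDC1 genes tested in Ly6C hi monocytes, 8 were lower and 1 higher in Slc29a3-/- than in Slc29a3-/- Tlr7-/- libraries. Cd8a, which T cells also carry, fell by 2.08 (SE 0.29, limma adjusted p = 2.5e-04), Clnk, an adaptor of immune receptor signalling, by 1.60 (SE 0.46, limma adjusted p = 0.026), and Cadm1, an adhesion molecule of cDC1, by 1.43 (SE 0.33, limma adjusted p = 0.0074). Clnk was at 0 to 0.398 RPM in Slc29a3-/- libraries, passed the filter through the other genotypes, and in effect could be called only lower. Irf8, the partner of BATF3, fell by 0.99 (SE 0.18, limma adjusted p = 0.0014). Ly75, the endocytic receptor DEC-205, rose by 2.23 (SE 0.42, limma adjusted p = 0.002), from 5.77 to 35 RPM in Slc29a3-/- Tlr7-/- to 53.6 to 141 RPM in Slc29a3-/- libraries, and so went against its list. Of 11 further pDC genes, 7 fell and 0 rose. Spib, a transcription factor of pDCs, fell by 1.64 (SE 0.23, limma adjusted p = 2.7e-04), Ly6d, which marks lymphoid and pDC precursors, by 1.39 (SE 0.22, limma adjusted p = 6.3e-04), and Lag3, an MHC class II ligand, by 1.34 (SE 0.31, limma adjusted p = 0.0087).

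Of 10 further cDC2 genes, 5 fell and 1, the lectin Mgl2 (1.35, SE 0.35, limma adjusted p = 0.014), rose. Those that fell most were Cd7 (-1.68, SE 0.32, limma adjusted p = 0.0021) and the coreceptor Cd4 (-1.32, SE 0.31, limma adjusted p = 0.0093), both of which lymphocytes also carry. In the list of genes shared by dendritic cell types 12 of 14 were lower and 0 higher. It held the cytoskeletal gene Fscn1 (-1.44, SE 0.23, limma adjusted p = 7.9e-04), the growth factor receptor Flt3 (-1.43, SE 0.25, limma adjusted p = 0.0013), and the MHC class II genes H2-Eb1 (-1.18, SE 0.20, limma adjusted p = 0.0011) and H2-Aa (-1.16, SE 0.19, limma adjusted p = 9.8e-04). MHC class II genes are also expressed by monocytes and B cells.

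Ly6C low monocytes had 8 of the 44 genes tested in these lists lower and 1 higher in Slc29a3-/- than in Slc29a3-/- Tlr7-/- libraries, where 0.708% and 1.22% of all genes were. Whether this difference between Slc29a3-/- and Slc29a3-/- Tlr7-/- libraries was unlike in the 2 subsets was not tested. The 8 were 5 of the shared list, the MHC class II genes H2-Aa (-1.84, SE 0.33, limma adjusted p = 0.0081), H2-Eb1 (-1.77, SE 0.27, limma adjusted p = 0.0036), and H2-Ab1 (-1.68, SE 0.40, limma adjusted p = 0.044) with the invariant chain gene Cd74 (-1.90, SE 0.28, limma adjusted p = 0.0024) and Flt3 (-1.47, SE 0.34, limma adjusted p = 0.042), and 3 of the cDC2 list, Cd4, Cd7, and Dtx1. Cadm1, which was lower in the Ly6C hi subset, was higher here (1.43, SE 0.31, limma adjusted p = 0.026). Of the 9 pDC genes tested, 0 were called by limma. The 9 calls in all became 4 without Slc29a3-/- replicate 4 and 5 without Slc29a3-/- replicate 2 of this subset. In the interaction for Slc29a3-/- against WT, 15 of 49 list genes were called toward a lower value in Ly6C hi monocytes and 1 toward a higher value. Over all 11042 genes tested these numbers were 513 and 454, and the counts describe lists drawn up with earlier results known.

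Partners of the 9 genes are their ligands, adaptors, and the transcription factors they act with or against. Of 12 tested in Ly6C hi monocytes, 1 was lower and 0 higher in Slc29a3-/- than in Slc29a3-/- Tlr7-/- libraries, Zeb2 (-0.82, SE 0.22, limma adjusted p = 0.018), a repressor that pDCs and monocytes need, where 8.22% of all genes tested were lower. Against WT 4 fell, where 14.3% of all genes tested did, namely the XCR1 ligand gene Xcl1 (-3.25, SE 0.60, limma adjusted p = 0.0017), the E protein inhibitor Id3 (-2.77, SE 0.54, limma adjusted p = 0.0022), Nfil3 (-1.48, SE 0.25, limma adjusted p = 0.0011), and the FLT3 ligand gene Flt3l (-0.87, SE 0.18, limma adjusted p = 0.0029). Xcl1, which NK cells make, was at 2.65 to 20.5 RPM in WT and 0 to 0.716 RPM in Slc29a3-/- libraries. Tcf3 and Tcf12, E proteins related to Tcf4, Tyrobp, the adaptor of Siglec-H, and Batf, a relative of Batf3, did not pass in either comparison of this subset. Of 13 relatives of the members tested against Slc29a3-/- Tlr7-/-, 4 were lower, among them Cd209d (-1.98, SE 0.26, limma adjusted p = 2.1e-04) and Cd209e (-1.32, SE 0.27, limma adjusted p = 0.0033), and 1 was higher, Siglecf (1.53, SE 0.34, limma adjusted p = 0.0064), a gene of the sort gate. Cd209d was at 1.03 to 2.21 RPM in Slc29a3-/- and 4.93 to 11.6 RPM in Slc29a3-/- Tlr7-/- Ly6C hi libraries. Cd209e was at 0 to 0.238 RPM and 1.16 to 3.09 RPM in the same order. Like Xcl1 against WT, Cd209e passed the filter through libraries of the other genotypes and in effect could be called only lower.

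Markers of other cells moved with the genotypes in the Ly6C hi gate. The 8 neutrophil genes summed to 13748 to 21431 RPM in WT, 42313 to 81438 RPM in Slc29a3-/-, and 6168 to 21552 RPM in Slc29a3-/- Tlr7-/- libraries, and 6 of the 8 rose and 1 fell in Slc29a3-/- against Slc29a3-/- Tlr7-/-. The 8 genes of granulocyte-monocyte progenitors summed to 368 to 470, 924 to 2972, and 389 to 966 RPM in the same order, and 6 rose. The 7 T cell genes summed to 21.6 to 119 RPM in WT, 4.94 to 9.49 RPM in Slc29a3-/-, and 3.21 to 32.6 RPM in Slc29a3-/- Tlr7-/- libraries, and the 8 NK cell genes to 135 to 552, 24.9 to 44.5, and 10.7 to 792 RPM. The highest NK cell sum came from Slc29a3-/- Tlr7-/- replicate 1 alone, and the others of that group were at 10.7, 30.8, and 100 RPM. Neither of these lists held a gene called between Slc29a3-/- and Slc29a3-/- Tlr7-/- libraries, whereas 5 of 5 T cell and 8 of 8 NK cell genes tested fell against WT. The 7 B cell genes summed to 30.7 to 40.3 RPM in WT, above every Slc29a3-/- library (15.5 to 20.8 RPM), and to 15.4 to 38.6 RPM in Slc29a3-/- Tlr7-/- libraries, and the 1 of them that was tested fell against WT (-0.97). In every library of both mutant groups 6 of the 7 were under 1 RPM. The part of these cells in the levels of the 9 genes was not tested. With scaling by TMM, which moved the median of all genes in Slc29a3-/- against WT from -0.14 to -0.01 and the calls from 861 higher and 1507 lower to 1200 higher and 1130 lower, 7 of the 9 members were still called lower.

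In Ly6C low libraries the neutrophil sums were 34.6 to 1304 RPM in WT, 15.3 to 100 RPM in Slc29a3-/-, and 2.38 to 41.9 RPM in Slc29a3-/- Tlr7-/- mice. The erythroid genes summed to 37.9 to 97.2, 101 to 131, and 12.9 to 53.8 RPM, with 3 of 4 higher in Slc29a3-/- than in Slc29a3-/- Tlr7-/-, and red pulp macrophage genes to 592 to 666, 796 to 1103, and 526 to 1622 RPM in the same order, and their part was not tested either. In Ly6C hi libraries erythroid genes summed to 21.6 to 107, 7.06 to 13.7, and 14.9 to 38.1 RPM, red pulp macrophage genes to 405 to 525, 355 to 496, and 435 to 1210 RPM, and eosinophil genes to 81.0 to 208, 61.5 to 95.8, and 56.1 to 110 RPM. Of the sort gate, Itgam (CD11b) was at 1525 to 1948 RPM in Slc29a3-/- and 1524 to 2174 RPM in Slc29a3-/- Tlr7-/- Ly6C hi libraries, and Ly6g, which the gate excludes, at 59.2 to 139 and 2.77 to 39.8 RPM.

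**Figure D4:**
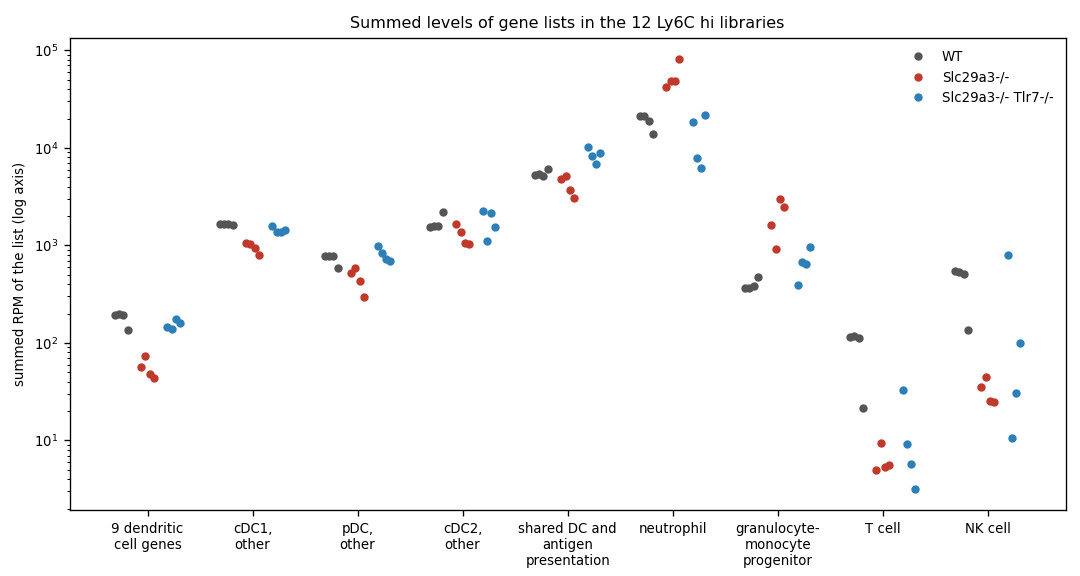
Summed RPM of the 9 genes, of 4 other dendritic cell lists, and of neutrophil, granulocyte-monocyte progenitor, T cell, and NK cell markers in the 12 Ly6C hi libraries, on a log axis, with 1 point per library coloured by genotype. The 9 genes sum to 44.2 to 74.0 RPM in Slc29a3-/- (red) libraries and 137 to 198 RPM in WT (grey) libraries, while the neutrophil sum is highest in red, at 42313 to 81438 RPM.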

How the data were processed

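Splenic monocytes were profiled with a targeted amplicon panel (Ion AmpliSeq, 1 amplicon per gene, sequenced on Ion Proton) in 24 libraries. The deposited values are RPM (reads scaled to 1000000 per library), made by the authors from reads on mm10; the step that wrote the table is not given in the sources used here. Values of 0.0001 were read as 0, and 27 gene names turned into dates were restored. Depth was inferred from low values (12311110 to 14572064 reads per library) and covers counting error only. The 9 genes and all gene lists were chosen with earlier results of these data known. Groups came from the labels. Genotypes were compared within a subset (12 libraries), and subsets and interactions over all 24, with limma 3.58.1 in R 4.3.3 (moderated by an intensity trend) on log2(RPM + 1), over genes that reached 1 RPM in 4 or more libraries. A fold change on this scale understates the change of low genes. Genes were called at a fold over 1.5 and a Benjamini-Hochberg adjusted p under 0.05, two-sided, over all genes tested. Scripts were tested on simulated data. The reported fits did not pair libraries, and the replicate number entered only as a block in an alternative. Deviations of same-numbered Ly6C hi and Ly6C low WT libraries from their group means correlated at 0.26 to 0.62, with WT replicate 4 apart in both subsets. From the other lists, up to 4 called genes per comparison with the largest difference were named, besides any partner gene; Irf8 was added after its values were seen. Gene positions are from GENCODE vM21 on GRCm38, the assembly of mm10, and upstream sequences and gene IDs from RefSeq. Alternatives varied scaling, filter, pseudocount, block, model, and libraries. List genes without an amplicon of that name, such as Ly6c2 and Cd79a, were not analysed here.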

Additional observations from a re-analysis of the deposited data

Results flagged for a closer look

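Among the 54 sets of 4 libraries (9 genes in 6 groups), 5 held 1 library far from the other three by Dixon's test, where chance gives about 1 in 20. In 4 of the 5 that library was WT replicate 4. Siglech was at 13.7 RPM in Ly6C hi WT replicate 4 and 38.5 to 43 RPM in the others. Cd209a was at 29.2 RPM in Ly6C hi WT replicate 4 against 20.3 to 21.2 RPM, and at 17.3 RPM in Ly6C low WT replicate 4 against 6.78 to 8.30 RPM. Ccr9 was at 0.843 RPM in Ly6C low WT replicate 4 against 0.349 to 0.412 RPM. The last was Xcr1 in Ly6C hi Slc29a3-/- replicate 4, at 2.30 RPM against 0.637 to 0.872 RPM.

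The interaction of Slc29a3 loss with subset passed for 4 genes by limma, in a test that uses the Slc29a3-/- libraries by which the genes were chosen. Its size on the log2 scale, Ly6C hi minus Ly6C low, was -2.26 for Xcr1 (limma adjusted p = 0.0035), -2.05 for Ccr9 (limma adjusted p = 8.1e-04), -1.42 for Clec9a (limma adjusted p = 0.012), and -1.20 for Batf3 (limma adjusted p = 0.047). Ccr9 passed the filter only through its Ly6C hi libraries and was close to the level of 3 reads in Ly6C low libraries, where a fall could not have appeared, so its value does not show a difference between the subsets. The call of Batf3 was lost with the replicate block (limma adjusted p = 0.061). It was also lost under TMM (limma adjusted p = 0.068) or RLE scaling (0.065) and without the filter (0.11). A filter on a mean of at least 5 RPM (0.055) or a pseudocount of 0.1 (0.081) removed it as well.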

How the results depend on the processing

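The median difference between Slc29a3-/- and Slc29a3-/- Tlr7-/- over the 9 genes was -1.35 in Ly6C hi monocytes, -1.81 with a pseudocount of 0.1, and -1.54 to -1.09 with single libraries left out; in Ly6C low monocytes it was -0.68 and -0.83 to -0.44. Counts of called members that left the range of 1.5 times were as follows, and the cause was not tested. With WT replicate 4 alone in place of WT, a fit that assumes this library varies like the other groups, the counts were 3 in place of 8 (Slc29a3-/- against WT, Ly6C hi), 0 in place of 1 (Slc29a3-/- Tlr7-/- against WT, Ly6C hi), 0 in place of 3 (Slc29a3-/- against WT, Ly6C low), 1 in place of 5 (subsets in WT), and 0 in place of 4 (interaction for Slc29a3-/-). With WT replicates 1 to 3 averaged, a setting added after seeing the data, they were 5, 0, 0, 3, and 1 in the same order. The 1 call for Slc29a3-/- Tlr7-/- against WT in Ly6C hi monocytes also became 0 without the filter, with a pseudocount of 0.1, a mean of at least 5 RPM, the replicate block, or only the groups compared, and 4 at an unadjusted p. In Ly6C low monocytes the 3 calls for Slc29a3-/- became 1 without the filter and 5 unadjusted, and the 0 calls for Slc29a3-/- Tlr7-/- became 1 under TMM or RLE scaling, 2 in the model of all 24 libraries, and 3 unadjusted. The 7 calls between subsets in Slc29a3-/- Tlr7-/- became 4 with only the groups compared, and the interaction for Slc29a3-/- gave 2 with a mean of at least 5 RPM and 7 unadjusted, and that for Slc29a3-/- Tlr7-/- 1 unadjusted.

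With single libraries left out, the counts ranged from 7 to 9 and 0 to 2 in Ly6C hi monocytes (Slc29a3-/- and Slc29a3-/- Tlr7-/- against WT), from 1 to 4 and 0 to 3 in Ly6C low monocytes, from 5 to 6, 2 to 5, and 5 to 7 between subsets (WT, Slc29a3-/-, Slc29a3-/- Tlr7-/-), and from 3 to 5 and 0 to 0 for the interactions. Calls in the other dendritic cell lists ranged from 22 to 36 (34 with all libraries) and 27 to 35 (33) in Ly6C hi monocytes, against Slc29a3-/- Tlr7-/- and WT, and from 4 to 11 (9) and 1 to 14 (6) in Ly6C low monocytes. The 33 became 21 with a mean of at least 5 RPM, 2 with WT replicate 4 alone, and 17 with WT replicates averaged; the 9 became 21 unadjusted; the 6 became 1 without the filter, 18 unadjusted, 10 in the model of all 24 libraries or with only the groups compared, 2 with WT replicate 4 alone, and 0 with WT replicates averaged.

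Signs of single genes were followed for Slc29a3-/- against WT in each subset and for Slc29a3-/- Tlr7-/- against WT in Ly6C hi monocytes. In other comparisons they were followed only for genes with an unadjusted limma p under 0.05. Among the values followed, some turned with WT replicate 4 alone in place of WT. These were Clec9a (0.29), Siglech (0.34), Xcr1 (0.37), and Zbtb46 (0.00) for Slc29a3-/- Tlr7-/- against WT in Ly6C hi monocytes. Bcl11a also turned, for Slc29a3-/- against WT in Ly6C low monocytes (-0.02) and between subsets in WT (0.23). Turns of other values are not listed, such as Xcr1 between subsets, at 5.46 RPM in Ly6C hi and 9.5 RPM in Ly6C low WT replicate 4. Batf3 in Ly6C low Slc29a3-/- against WT was at 0.03, at -0.05 to 0.12 with single libraries left out, and turned to -0.01 without WT replicate 3, -0.03 without Slc29a3-/- replicate 2, and -0.05 without Slc29a3-/- replicate 4. Of the single-gene values so followed, under all alternatives, 1424 kept their direction and call, 99 lost a call, 39 gained one, and 9 turned. Values that were not followed are outside these counts. Same-numbered libraries of most group pairs did not deviate together (correlations from -0.46), and the replicate block changed the count of called members in 1 comparison, the one named above. In the interaction for Slc29a3-/- the block kept the count at 4 but exchanged Batf3 (limma adjusted p = 0.061) for Bcl11a (limma adjusted p = 0.036). Over all genes, calls for Slc29a3-/- against WT in Ly6C hi monocytes ranged from 156 with WT replicate 4 alone to 2817 unadjusted, with 2368 as reported. TMM moved the split for Slc29a3-/- against Slc29a3-/- Tlr7-/- from 951 higher and 868 lower to 1109 and 591. Count tests with edgeR and DESeq2 were planned on recovered reads and not run, since reads were not recovered from the RPM table. Ccr9 in Ly6C low monocytes lies under the filter and near the depth limit.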
